A study of Mus musculus with 13 samples.

Results

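A panel of 68 miRNA probes was measured in plasma exosomes of mice after sham surgery or cecal ligation and puncture. Described here are 3 chosen from the probes with names of vessel wall miRNAs: miR-126-3p, miR-145-5p and miR-221-3p. Their rows were found by probe name, and this set of names was picked with earlier results of these data known. Exosomes are membrane vesicles shed by cells, which circulate in plasma. The samples came from 13 male wild-type C57BL/6J mice, sampled 24 hours after surgery, of which 5 had a sham operation and 8 had cecal ligation and puncture (CLP), a model of sepsis in which bacteria leak from a tied and punctured cecum into the abdomen. There was 1 sample from each mouse, read as fluorescence on a linear scale, and no other allele, agent or age is named in the labels used here. Nothing states whether the mice were housed, bled or assayed together, so every p-value measures only the spread between these samples. The summed raw signal of the panel was 10598 to 45121 units in sham mice and 33043 to 74685 units in CLP mice.

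MicroRNAs are short RNAs that guide Argonaute proteins to messenger RNAs through base pairing of the seed, the bases near their 5′ end, and lower the output of those messengers. miR-126 is made in endothelial cells from within Egfl7, a gene of the same cells. It represses the signalling inhibitors SPRED1 and PIK3R2, which favours the response to VEGF, and it limits the adhesion molecule VCAM1; platelets carry it as well. miR-145 is made with miR-143 and is abundant in vascular smooth muscle, where it favours the contractile state by repressing KLF4 and KLF5. miR-221 is made with its seed twin miR-222, and it represses the receptor KIT in endothelium and the cell cycle inhibitor CDKN1B in smooth muscle. The label vascular rests on this background, since a plasma sample carries vesicles of many cells and the panel held no probe that could assign a vesicle to the vessel wall.

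Mature mouse sequences from RefSeq (GRCm38.p6) show what 2 of the probes stand for, with the seed (bases 2 to 8) in capitals. The sequence of miR-222-3p, which was not on the panel, is given to show the seed it shares with miR-221-3p.
mmu-miR-126a-3p: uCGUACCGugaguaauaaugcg
mmu-miR-221-3p: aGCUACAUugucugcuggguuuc
mmu-miR-222-3p: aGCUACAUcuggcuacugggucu
The first lies at chr2:26591402-26591423 on the plus strand, inside the span of Egfl7 (chr2:26581083-26592682). The second lies at chrX:19146307-19146329 on the minus strand, and its hairpin is 504 bases from that of miR-222 and inside no other annotated gene. miR-221-3p and miR-222-3p hold the same base at 11 of 23 positions counted from the 5′ end and first differ at position 9. Among the 49 panel probes with a mature mouse sequence in the table used here, no other probe shared the seed of miR-126-3p or of miR-221-3p. The sequence of miR-145-5p is not shown.

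The first comparison asked how much signal of the 3 miRNAs was recovered from each mouse, before any scaling. All 3 were higher in CLP mice. miR-126-3p read 97.8, 228.6, 255.6, 101.7 and 464.4 units in sham mice 1 to 5, and from 735.9 to 1767 units, with a median of 1408, in CLP mice. The groups did not overlap, and the lowest CLP mouse was above the highest sham mouse. miR-145-5p read 84.5, 195.3, 384.5, 35.2 and 508.9 units in sham mice 1 to 5, and from 406.3 to 1690 units, with a median of 1329, in CLP mice. Of the CLP mice, 7 of 8 were above every sham mouse, and CLP mouse 1 was below sham mouse 5. miR-221-3p read 73.5, 95.1, 83.2, 60.9 and 187.1 units in sham mice 1 to 5, and from 156 to 549.9 units, with a median of 332.5, in CLP mice. Again 7 of 8 CLP mice were above every sham mouse, and the exception was CLP mouse 8.

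On the log2 scale miR-126-3p rose by 2.73 (SE 0.44, 6.65-fold, limma adjusted p = 5.78e-05), miR-145-5p by 2.72 (SE 0.56, 6.58-fold, limma adjusted p = 0.000223) and miR-221-3p by 1.77 (SE 0.43, 3.42-fold, limma adjusted p = 0.000745). These rises belong to a rise of nearly the whole panel. Of the 66 miRNAs tested without scaling, 90.9% rose by the same test, with a median of 1.87. For 15.2% of the 66 the groups did not overlap, miR-126-3p among them. More vesicles in the plasma, more miRNA per vesicle and a difference in how the groups were bled or assayed cannot be told apart in such samples. miR-126-3p ranked 4th, miR-145-5p 5th and miR-221-3p 37th by unscaled change.

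The second comparison asked whether the 3 moved relative to the panel. The signals of a mouse were divided by its panel level, the geometric mean over the 60 miRNAs that were above 0 in every mouse. miR-126-3p rose, miR-145-5p was higher by about as much but did not pass, and miR-221-3p moved little. Scaled miR-126-3p lay at 586.4, 644.1, 557.4, 560.4 and 529.9 units in sham mice 1 to 5. Its CLP values ran from 709.4 to 1672 units with a median of 931.5. All 8 CLP mice were above all sham mice, and CLP mice 1 and 8, at 1640 and 1672 units, were well above the other 6. The change was 0.80 log2 units (SE 0.23, 1.74-fold, 95% interval 1.24 to 2.43-fold, limma adjusted p = 0.0192). Over the 65 miRNAs tested after scaling 30.8% passed in either direction and 10.8% as higher, and for 7.69% the groups did not overlap.

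Scaled miR-145-5p lay at 506.5, 550.3, 838.5, 193.8 and 580.6 units in sham mice 1 to 5 and ran from 377.8 to 1324 units, with a median of 914.5, in CLP mice. The groups overlapped: sham mouse 3 was above CLP mice 1, 2 and 3, and CLP mouse 1 was below 4 of 5 sham mice. The change of 0.78 (SE 0.33, 1.72-fold, 95% interval 1.05 to 2.80-fold) did not pass after adjustment (limma adjusted p = 0.0820). It depended on single mice. Without sham mouse 4, the lowest, it was 0.42 (limma adjusted p = 0.248), and without sham mice 1 and 4 it was 0.32 (limma adjusted p = 0.466), whereas without sham mouse 3 it passed at 0.98 (limma adjusted p = 0.0426) and without CLP mouse 1 it passed at 0.94 (limma adjusted p = 0.0321).

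Scaled miR-221-3p lay at 440.9, 267.9, 181.5, 335.4 and 213.4 units in sham mice 1 to 5 and ran from 200.03 to 322.3 units, with a median of 233.7, in CLP mice. All CLP values lay inside the sham range. The change was -0.16 (SE 0.22, limma adjusted p = 0.599), with a 95% interval from 0.648 to 1.23-fold, and it turned to 0.05 with the 75th percentile or with the authors' values as the scale. Over 7 scalings of the mice miR-126-3p was between 0.66 and 1.01, and passed in 6, the exception being quantile normalization (limma adjusted p = 0.0530). Over the same 7, miR-145-5p was between 0.70 and 0.998 and passed in none (limma adjusted p from 0.0600 to 0.167). Scalings also shifted the panel median, which was 0.10 with the geometric mean, 0.02 when the 3 most stable miRNAs set the scale and 0.26 with the 75th percentile. Relative to that median, miR-126-3p was 0.62 to 0.75 higher, miR-145-5p 0.68 to 0.73 higher and miR-221-3p 0.19 to 0.26 lower in all 7. Of these, 6 use 1 factor per mouse, so they move all miRNAs off the floor together and do not check each other.

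**Figure D1:**
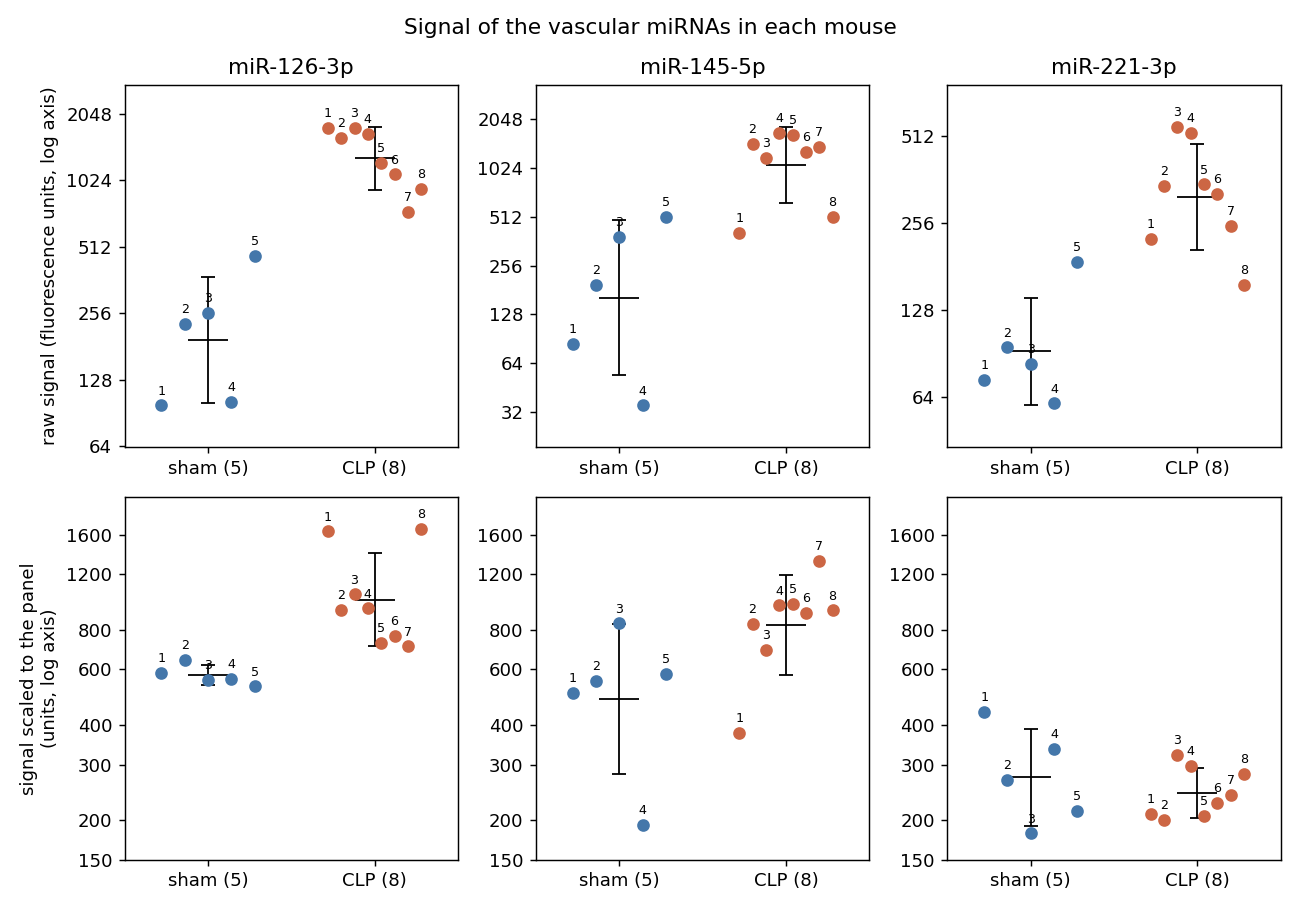
Signal of miR-126-3p, miR-145-5p and miR-221-3p in each mouse, raw (upper row) and scaled to the panel (lower row), on log axes in fluorescence units; points are mice with their replicate numbers, and bars are the mean of the log2 values and 1 SD (5 sham, 8 CLP). After scaling, all 8 CLP mice are above all sham mice for miR-126-3p, and all CLP mice are inside the sham range for miR-221-3p.

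The spread between mice differed among the 3. Within sham, scaled miR-126-3p had an SD of 0.11 log2 units, the 3rd lowest of the 65 miRNAs tested, against a panel median of 0.48. Within CLP its SD was 0.49, rank 50 from the lowest, against a panel median of 0.36. miR-145-5p ranked 54 from the lowest in both groups, with SDs of 0.79 in sham and 0.53 in CLP. miR-221-3p had an SD of 0.51 in sham and 0.26 in CLP. These spreads were not tested between groups.

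The panel level was 45.8 to 240.6 units in sham and 152.9 to 485.1 units in CLP, and CLP mouse 8, at 152.9, was the 1 CLP mouse inside the sham range, so level and group can hardly be told apart. That mouse read 930.8 units of miR-126-3p, above sham mouse 5 with 464.4 units at the higher level of 240.6. For miR-145-5p these mice were close, with 513.6 units in CLP mouse 8 and 508.9 in sham mouse 5. For miR-221-3p CLP mouse 8 read 156 and sham mouse 5 read 187.1 units.

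Within groups, the log2 signal rose per log2 unit of panel level by 0.78 (SE 0.15) for miR-126-3p, by 1.29 (SE 0.25) for miR-145-5p and by 0.71 (SE 0.13) for miR-221-3p, against a panel median of 0.97. With the level as a covariate in the unscaled fit, miR-126-3p was still higher in CLP (1.23, SE 0.36, limma adjusted p = 0.0348). miR-145-5p (0.21, SE 0.54, limma adjusted p = 0.795) and miR-221-3p (0.40, SE 0.32, limma adjusted p = 0.499) did not pass in that fit, in which 8 of 66 miRNAs passed.

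**Figure D2:**
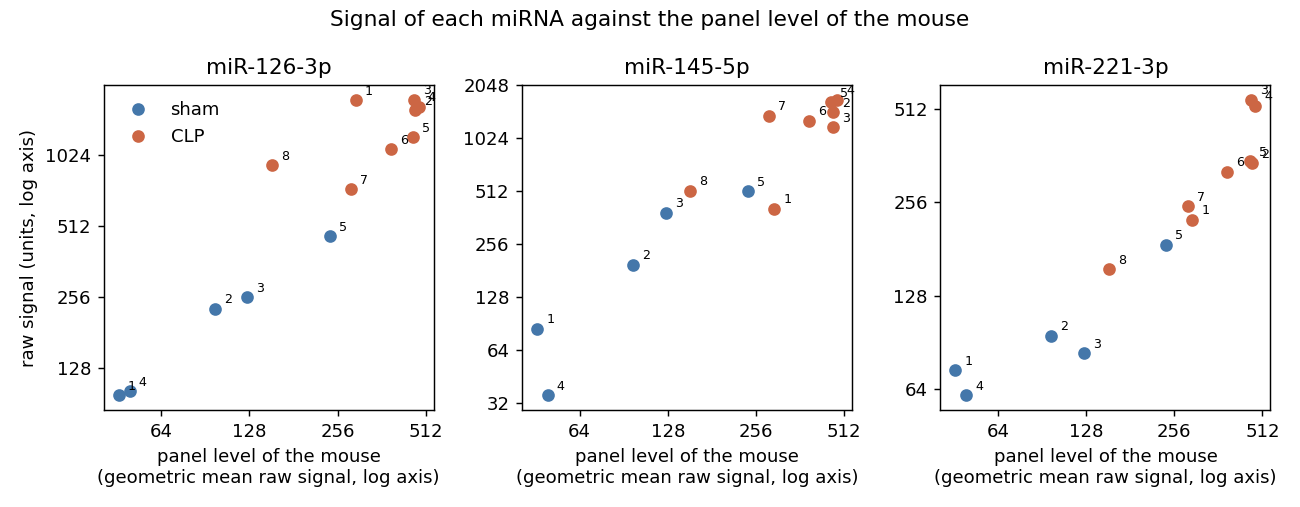
Raw signal of each miRNA (units, log axis) against the panel level of the mouse, the geometric mean raw signal of 60 miRNAs (units, log axis); points are mice with their replicate numbers. CLP mouse 8, at a level of 152.9, is above sham mouse 5 for miR-126-3p (930.8 against 464.4 units), level with it for miR-145-5p (513.6 against 508.9) and below it for miR-221-3p (156 against 187.1).

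The third comparison took the ratio of 2 of the miRNAs within a mouse, on raw values, where any factor per mouse cancels. Because probes differ in brightness, the ratio itself is no measure of relative amount, and its difference between groups is read instead. The log2 ratio of miR-126-3p to miR-221-3p was 0.41, 1.27, 1.62, 0.74 and 1.31 in sham mice 1 to 5. In CLP mice it ran from 1.56 to 2.97 with a median of 1.79. Of 8 CLP mice 7 were above every sham mouse, and CLP mouse 7 was just below sham mouse 3. Sham mice averaged 1.07 ± 0.48 (SD, n = 5) and CLP mice 2.03 ± 0.51 (SD, n = 8). The ratio was thus 1.94-fold higher in CLP (exact two-sided permutation p = 0.00311; 0.0171 after Benjamini-Hochberg adjustment over all 1770 pairs of panel miRNAs). Among these pairs, which share miRNAs, 30.5% passed. The smallest p that 5 against 8 mice can give is 0.000777. The adjusted p of this ratio was 0.0602 without sham mouse 1, 0.0530 without sham mouse 4 and 0.155 without both (exact permutation), with log2 changes of 0.79, 0.88 and 0.63 in place of 0.96.

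The log2 ratio of miR-126-3p to miR-145-5p was 0.21, 0.23, -0.59, 1.53 and -0.13 in sham mice 1 to 5 and ran from -0.90 to 2.12, with a median of 0.06, in CLP mice. The groups lay over each other, and the extremes were CLP mouse 7 and CLP mouse 1. The mean ratio changed by 0.02 (exact permutation p = 0.976; adjusted 0.991), and limma's 95% interval of 0.511 to 2.001-fold leaves room for a change of either sign. Its sign was negative without sham mouse 3 or 5 or without CLP mouse 1, 3 or 8, down to -0.25.

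The log2 ratio of miR-145-5p to miR-221-3p was 0.20, 1.04, 2.21, -0.79 and 1.44 in sham mice 1 to 5 and ran from 0.85 to 2.46, with a median of 1.86, in CLP mice. It was 0.94 higher on average in CLP, nearly as much as the ratio of miR-126-3p to miR-221-3p, but sham mice were widely spread (SD 1.16 against 0.55) and it did not pass (exact permutation p = 0.0622; adjusted 0.140). Without sham mouse 3, the highest sham mouse, the change was 1.29 and passed (exact permutation adjusted p = 0.0384), and without sham mouse 4, the lowest, it was 0.54 (adjusted 0.325). Without sham mice 1 and 4 it was 0.20 (exact permutation adjusted p = 0.718).

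**Figure D3:**
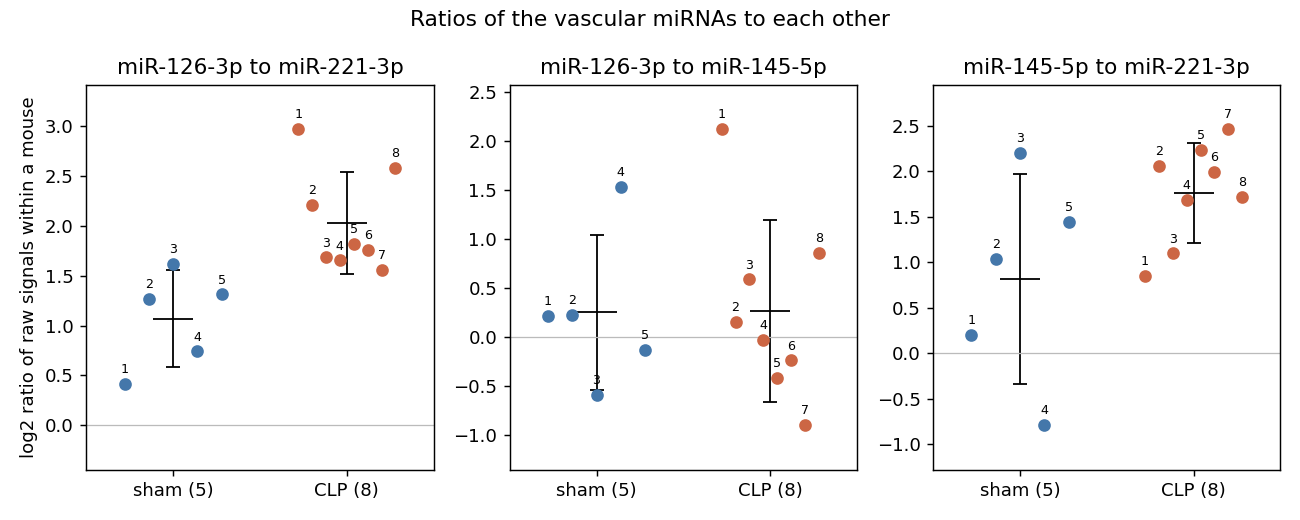
Log2 ratio of raw signals of 2 miRNAs within a mouse; points are mice with their replicate numbers, and bars are the mean and 1 SD (5 sham, 8 CLP). For miR-126-3p to miR-221-3p 7 of 8 CLP mice are above every sham mouse, for miR-126-3p to miR-145-5p the group means are 0.25 and 0.27, and for miR-145-5p to miR-221-3p sham mice span -0.79 to 2.21.

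The same ratio was then taken between each of the 3 miRNAs and all 59 partners above 0 in every mouse. The mean ratio of miR-126-3p was higher in CLP against 55 partners and lower against 4. It passed as higher against 30 and as lower against 1, so that 52.5% of its ratios passed, beside 30.5% of all pairs. The 1 partner against which it fell was miR-10a-5p, a miRNA of the Hox gene clusters (-1.19, exact permutation adjusted p = 0.0217). The signal of miR-10a-5p was low in sham mice (unscaled log2 mean 4.18). This fall did not pass without sham mouse 1 or with 10 units added to each signal. The largest rises of the miR-126-3p ratio were against miR-205-5p of stratified epithelium (2.41, exact permutation adjusted p = 0.0308) and against the erythroid miR-451a (2.30, exact permutation adjusted p = 0.00819), the abundant miRNA of red cells.

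For miR-145-5p the mean ratio was higher against 54 partners. It passed as higher against 19, all of which were among the 30 for miR-126-3p, and as lower against miR-200a-3p, an epithelial miRNA (-1.69, exact permutation adjusted p = 0.0240), and miR-10a-5p (-1.20, exact permutation adjusted p = 0.0484). In all 35.6% of its ratios passed, beside 30.5% of all pairs. No ratio of miR-126-3p or miR-145-5p passed as lower without sham mouse 1, without sham mice 1 and 4 or with 10 units added to each signal. The signal of miR-200a-3p was low in sham mice (unscaled log2 mean 2.99). For miR-145-5p only 1 ratio passed as lower without any other single mouse except CLP mouse 7. Its count of 19 was 12 without sham mouse 1 and 10 without sham mouse 4. For miR-221-3p the mean ratio was higher against 24 partners and lower against 35. Of its ratios 13.6% passed, beside the same 30.5%: 4 as higher (miR-451a, miR-744-5p, miR-16-5p and miR-185-5p) and 4 as lower (miR-200a-3p, miR-10a-5p, miR-126-3p and miR-181a-5p). Its 4 as higher were 7 without sham mouse 1, and its 4 as lower were 10 without sham mouse 3 and 2 without sham mouse 1.

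**Figure D4:**
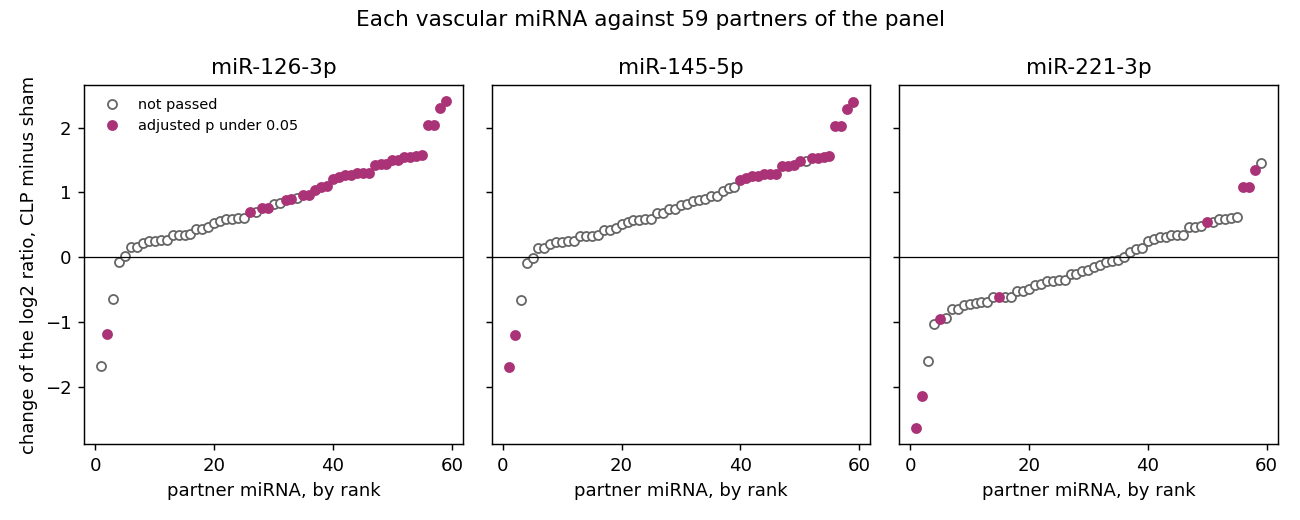
Change of the log2 ratio between each miRNA and 59 partners (vertical axis, CLP minus sham), with partners ranked by that change; filled points passed the exact permutation test after adjustment over all 1770 pairs. Filled points above 0 number 30 for miR-126-3p, 19 for miR-145-5p and 4 for miR-221-3p.

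The miRNAs most like each of the 3 were taken as those whose log2 ratio to it varied least over all 13 mice, as a description without a test. For miR-126-3p these were miR-150-5p, a lymphocyte miRNA (SD of the log2 ratio 0.25), miR-15b-5p (0.35) and miR-342-3p (0.47), against a median SD of 0.75 over all pairs. The pair of miR-126-3p and miR-150-5p was the 7th steadiest of 1770. A steady ratio by this measure can still differ between groups. That of miR-126-3p was higher in CLP by 0.26 against miR-150-5p, 0.44 against miR-15b-5p and 0.75 against miR-342-3p. Only the last passed (exact permutation adjusted p = 0.137, 0.0654 and 0.0114). For miR-221-3p these were let-7i-5p (0.27, rank 16 of all pairs), miR-320a (0.37) and miR-29b-3p (0.37), and its ratio to let-7i-5p changed by 0.01 between groups. For miR-145-5p the likeness was looser: miR-34a-5p, a p53 target (0.49), miR-196a-5p of the Hox clusters (0.55) and miR-22-3p (0.59). The 3 were less like each other, with SDs of 0.68 for miR-126-3p with miR-221-3p, 0.84 for miR-126-3p with miR-145-5p and 0.92 for miR-145-5p with miR-221-3p.

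Further miRNAs with known roles in the vessel wall were read from 2 lists. In the list of endothelial and angiogenesis miRNAs 14 of 25 names were on the panel, and after scaling 3 rose, 4 fell and 7 did not pass, beside 30.8% of all 65 that passed and 10.8% that rose. The list's median was -0.23 against 0.10 for all 65. The risers were miR-126-3p, miR-146a-5p, which damps Toll-like receptor signalling (0.87, limma adjusted p = 0.0192), and miR-10a-5p, which restrains endothelial inflammation (1.98, limma adjusted p = 1.26e-05). The fallers were miR-17-5p (-0.79) and miR-20a-5p (-0.51) of 1 polycistronic cluster, and miR-23a-3p (-0.50) and miR-24-3p (-0.48) of the miR-23/27/24 clusters, all 4 of them negative under the 7 scalings and positive on the unscaled signal (1.15 to 1.46). Of these, miR-17-5p passed in all 7 scalings, miR-23a-3p and miR-24-3p in 3 each and miR-20a-5p in 2, and miR-146a-5p passed in 6 and miR-10a-5p in 7. In the list of smooth muscle and vascular wall miRNAs 7 of 13 were on the panel, none rose, and miR-21-5p, which is raised in injured vessels, fell (-0.75, limma adjusted p = 0.0192; 1.19 unscaled), beside the same 30.8%. It passed in 4 of the 7 scalings (limma adjusted p up to 0.109). The remaining 6 did not pass with the geometric mean, and the list's median was 0.20. Of them, miR-26a-5p and miR-29b-3p each passed as higher in 2 of the 7 scalings.

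Markers of other cells were read beside these results. The summed scaled level of the 3 erythroid markers on the panel (miR-451a, miR-486-5p and miR-16-5p) was 15114 to 36232 units in sham and 7979 to 17848 units in CLP, and all 3 fell. Of the 7 scalings, miR-451a and miR-16-5p passed in 6 and miR-486-5p in 5. With quantile normalization none passed and miR-16-5p was at 0.14, and with the median miR-486-5p did not pass (limma adjusted p = 0.0520). All 3 were positive unscaled (0.44 to 1.17). The summed scaled level of the 3 platelet markers on the panel (miR-223-3p, miR-24-3p and miR-21-5p) was 5270 to 7517 units in sham and 4596 to 6649 units in CLP, and miR-24-3p and miR-21-5p fell, in 3 and 4 of the 7 scalings and not on the unscaled signal. That of the 4 leukocyte markers was 3202 to 4443 units in sham and 3581 to 7982 units in CLP. None passed with the geometric mean, though miR-150-5p was positive in all 7 scalings and passed as higher in 3. The 2 liver markers summed to 408.1 to 978.1 units in 4 sham mice and 383.6 to 1442 units in CLP. This sum joins 2 miRNAs that went opposite ways after scaling, neither of which passed with the geometric mean. miR-122-5p was higher (0.98, limma adjusted p = 0.0996), positive in all 7 scalings and passed in none. miR-192-5p was lower (-0.63, limma adjusted p = 0.0548), negative in all 7 and passed in 1. No marker of these lists was at 0 in any mouse. The lists overlap, so they are not separate readings. miR-24-3p and miR-21-5p are the same probes that fell in the 2 lists of vessel wall miRNAs, and miR-223-3p is in both the platelet and the leukocyte list. The log2 ratio of miR-126-3p was higher in CLP against the platelet miRNAs miR-223-3p (0.90), miR-24-3p (1.27) and miR-21-5p (1.54), and passed (exact permutation adjusted p = 0.0196, 0.00819 and 0.00819). Against the other leukocyte miRNAs miR-150-5p (0.26), miR-142-3p (0.34) and miR-155-5p (0.52) it did not pass (exact permutation adjusted p = 0.137, 0.545 and 0.194). Each of the 3 erythroid markers also gave a higher ratio that passed (1.56 to 2.30, exact permutation adjusted p = 0.00819 for each). So did the liver marker miR-192-5p (1.43, exact permutation adjusted p = 0.0143), while miR-122-5p was not among the 59 partners. These counts stand beside 52.5% of all 59 ratios of miR-126-3p, which passed in either direction. The part of any of these cells in the change of miR-126-3p was not tested.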

How the data were processed

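Fluorescence intensity was measured per miRNA probe. Per the labels' protocols, exosomes were isolated from plasma by ultracentrifugation, RNA was extracted with a column kit, and hybridized miRNAs were ligated to adapters and amplified with a biotinylated primer. The deposited raw intensity was not scaled between samples, and for the scanner, its software and the background step the sources used here give nothing. The authors' second table holds the raw intensity times 1 factor per sample (0.450 to 4.31). In it the columns of mice CLP 6 and CLP 7 hold each other's raw signals; both are CLP, and mice are named here by the raw table.

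Signals were divided by the panel level and multiplied by its mean, floored at the 5th percentile of positive values (3.09 units scaled, 2.10 raw), and log2 was taken. Tests covered the miRNAs that exceeded the floor in 5 or more mice (65 scaled, 66 raw). They were made across all these miRNAs with moderated two-sided statistics (limma 3.58.1, R 4.3.3) and Benjamini-Hochberg adjustment over all of them, at an adjusted p under 0.05. Ratios used the 60 miRNAs above 0 in all mice and an exact two-sided permutation test over all 1287 assignments of the mice, adjusted over all 1770 pairs. The raw table had 1 empty cell and, in sham 4, 7 zeros, none of them for the 3 miRNAs. The fits were tested on simulated data.

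The 3 miRNAs, the lists and the tests were chosen with earlier results of these data known. Named besides the 3 are, by rule, the 3 most like each, the listed miRNAs that passed, and the list markers. For the markers of other cells the rule asked for the summed level only, so their single changes, calls and ratios go beyond it. miR-26a-5p is named because it passed in other scalings. The partners named in the ratio comparison and the mice singled out were chosen after their values were seen. Probes carry human names; cross-hybridization was not assessed. Sequences came from RefSeq tables by Python 3.11.15. Precision is limited by the number of mice.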

Additional observations from a re-analysis of the deposited data

How the results depend on the processing

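The relative rise of miR-126-3p kept its sign in 26 of 26 alternatives and its call in 23. It did not pass with quantile normalization (0.66, limma adjusted p = 0.0530), without sham 1 and sham 4 (0.75, 0.0829) or with a replicate block (0.82, 0.0602; only the 10 mice numbered 1 to 5). Leaving out single mice gave 0.69 to 0.87, all past the threshold, though these fits share most of their mice. Alternatives that changed only the floor, the filter or the test left the change of miR-126-3p at 0.80, so its sign could not differ in them. miR-145-5p was at 0.32 without sham 1 and sham 4 and at 0.59 with the replicate block, and ran from 0.42 to 0.98 without single mice. miR-221-3p turned to 0.0544 with the 75th percentile, to 0.0484 with the authors' values and to 0.12 without sham 1 and sham 4; single mice left out gave -0.31 to 0.0079. Unscaled, single mice left out gave 2.49 to 3.05, 2.17 to 3.13 and 1.63 to 2.03 for miR-126-3p, miR-145-5p and miR-221-3p, and leaving out sham 1 and sham 4 gave 2.10, 1.67 and 1.47; with the panel level as a covariate the last pair were at 0.21 and 0.40. The ratio of miR-126-3p to miR-221-3p did not pass with the replicate block (0.998, limma adjusted p = 0.135) or without sham 1 and sham 4 (0.63), and single mice left out gave 0.79 to 1.10. Without single mice the ratio of miR-126-3p to miR-145-5p ran from -0.25 to 0.34 and that of miR-145-5p to miR-221-3p from 0.54 to 1.29; without sham 1 and sham 4 they were at 0.43 and 0.20, and with the replicate block at 0.23 and 0.77. Same-numbered mice did not deviate together (r from -0.34 to 0.29 over 5 numbers, over 0.1 in 2; 1 sham mouse of 5 correlated best with its own number), so the numbers were not taken as pairs.

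The count of miRNAs passed after scaling was 20. It was 9 with quantile normalization, 10 with the median, 6 with the replicate block and 13 to 22 without single mice. The split of higher to lower was 7 to 13, against 5 to 4 with quantile normalization, 13 to 6 with the 75th percentile and with the authors' values, 6 to 16 with the 3 most stable miRNAs (miR-29a-3p, miR-29b-3p and miR-320a), 5 to 16 with only miRNAs at 10 or more raw units and 3 to 12 without sham 1 and sham 4. Unscaled it was 60, 37 without those 2 mice, 8 with the level as a covariate and 56 to 63 without single mice. Partners passed as higher, 30, 19 and 4 for the 3 miRNAs, were 38, 28 and 8 with 10 units added to each signal, 13, 3 and 0 with the replicate block, and 17, 2 and 7 without sham 1 and sham 4. Those passed as lower, 1, 2 and 4, were 0, 0 and 5 with 10 units added. They were 1, 1 and 1 with the replicate block and 0, 0 and 1 without sham 1 and sham 4.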
